A study of Mus musculus with 19 samples.

Results

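The genes described here encode the machinery that loads, docks, releases and recovers synaptic vesicles. They are 54 presynaptic genes taken by name from the deposited count table, which lists 20938 genes. The list was chosen with earlier results of these data known. Its contrasts with all genes below are therefore descriptions and not separate support. All 54 were found, and all 54 were among the 16417 genes that passed the filter on low counts. For description they were ordered into 8 roles: calcium sensors, SNARE proteins and their partners, vesicle membrane proteins, synapsins, Rab proteins with rabphilin, active zone proteins, endocytosis proteins and vesicular glutamate transporters. The role named calcium sensors holds the synaptotagmins and Doc2 proteins, also those that do not bind calcium, such as Syt4, Syt11 and Syt13.

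RNA was sequenced from the left prelimbic cortex of mice in 19 libraries. The SCZ+c-MSST group (4 libraries) had received MK-801 intraperitoneally at 0.2 mg/kg every day for 2 weeks, and then ferumoxytol, an iron oxide nanoparticle, injected once into the left prelimbic cortex by stereotactic surgery and followed by a pulsed magnetic field. The SCZ group (4 libraries) had received the same MK-801 injections without this treatment. The Control+c-MSST group (5 libraries) had received saline injections with the nanoparticles and the field, and the Control group (6 libraries) saline injections alone. MK-801 blocks the channel of the NMDA receptor and is used in mice to model features of schizophrenia. Tissue was taken on day 3 after surgery. No label tells if SCZ and Control mice were operated on, so the effects of nanoparticles, field, injection and surgery cannot be told apart. Strain, sex, age and batch are not in the labels, and nothing says whether the libraries of a group came from separate mice, so p-values measure only the spread between these libraries.

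At a presynaptic terminal, vesicles filled with transmitter are held in reserve by synapsins, brought to the active zone by Rab proteins and scaffolds, and primed by RIM and Munc13 proteins. Calcium entering with an action potential binds synaptotagmins, which let the SNARE proteins on vesicle and plasma membrane zip together and fuse the membranes. NSF and its adaptors then take the SNARE complexes apart, and dynamin with its partners recovers the membrane. Most neurons of the prelimbic cortex are glutamatergic and fill their vesicles with VGLUT1, the product of Slc17a7. The protein VGLUT2, the product of Slc17a6, marks terminals that arrive from the thalamus and other subcortical sources. The counts here are of RNA, and protein at terminals was not measured.

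Total counts ran from 50140626 to 82416746 per library, and the 54 genes took 2.26% to 2.68% of them. Cortical excitatory markers (5 genes: Tbr1, Neurod6, Neurod2, Emx1 and Fezf2) were present in every library, at a summed 255 to 462 CPM (read counts scaled to the library total). Markers of neighbouring tissue varied more. The summed level of 12 striatal neuron markers ran from 244 CPM (Control replicate 3) to 2988 CPM (SCZ+c-MSST replicate 3), and that of 8 choroid plexus markers stood at 1779 CPM in Control replicate 2 and 172 CPM in Control replicate 3, against 4.65 to 22.1 CPM elsewhere. Some counts of the 54 genes and some marker values are also given without these 2 libraries. In bulk tissue, fewer cells of a type and less RNA per cell cannot be told apart.

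Promoter sequences are shown for the 5 genes that were higher at an unadjusted p under 0.05 in both comparisons of c-MSST described below: Bsn (an active zone scaffold), Ppfia3 (liprin-alpha-3, another active zone protein), Slc17a7 (VGLUT1), Stxbp5 (tomosyn, a brake on SNARE assembly) and Syn1 (synapsin I). They are the 250 bases before each gene's start, 5′ to 3′ on the gene's strand, from RefSeq on build GRCm38.p6, at chr9:108190384-108190633, minus strand, at chr7:45367020-45367269, minus strand, at chr7:45163671-45163920, plus strand, at chr10:9901041-9901290, minus strand and at chrX:20920919-20921168, minus strand, in this order. Capitals mark the motifs found on either strand: the GC box (GGGCGG), the full cAMP response element (TGACGTCA), the NRF1 motif, the EGR motif (GCGGGGGCG) and the left arm of RE1 (TTCAGCACC), the element bound by REST.
Bsn: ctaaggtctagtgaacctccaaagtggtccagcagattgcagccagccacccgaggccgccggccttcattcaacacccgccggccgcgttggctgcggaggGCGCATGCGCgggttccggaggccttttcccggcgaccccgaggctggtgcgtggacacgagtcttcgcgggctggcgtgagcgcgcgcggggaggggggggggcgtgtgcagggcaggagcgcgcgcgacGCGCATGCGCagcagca
Ppfia3: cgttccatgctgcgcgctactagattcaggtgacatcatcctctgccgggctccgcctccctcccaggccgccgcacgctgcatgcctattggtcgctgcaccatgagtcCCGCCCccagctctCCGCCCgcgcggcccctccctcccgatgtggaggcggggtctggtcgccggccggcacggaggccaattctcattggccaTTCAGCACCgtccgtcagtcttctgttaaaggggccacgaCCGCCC
Slc17a7: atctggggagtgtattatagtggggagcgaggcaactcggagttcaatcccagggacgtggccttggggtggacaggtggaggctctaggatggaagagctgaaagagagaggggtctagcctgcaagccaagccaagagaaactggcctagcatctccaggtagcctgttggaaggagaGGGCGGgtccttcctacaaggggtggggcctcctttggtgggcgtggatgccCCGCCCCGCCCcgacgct
Stxbp5: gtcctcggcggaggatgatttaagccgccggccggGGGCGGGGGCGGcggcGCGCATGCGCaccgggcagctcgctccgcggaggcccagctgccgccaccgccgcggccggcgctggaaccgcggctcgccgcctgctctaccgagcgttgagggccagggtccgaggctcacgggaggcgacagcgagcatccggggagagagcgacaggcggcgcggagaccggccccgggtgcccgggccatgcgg
Syn1: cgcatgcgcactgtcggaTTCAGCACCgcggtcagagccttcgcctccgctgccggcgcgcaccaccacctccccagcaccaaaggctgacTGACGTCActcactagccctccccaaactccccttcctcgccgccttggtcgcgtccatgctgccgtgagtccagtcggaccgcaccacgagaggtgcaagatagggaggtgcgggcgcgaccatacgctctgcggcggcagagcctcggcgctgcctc

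No capitalised motif stood in all 5 windows. The Bsn window held the NRF1 motif at 2 places and no GC box. The Ppfia3 window held GC boxes and the left arm of RE1, the Slc17a7 window only GC boxes, a pair of them overlapping, and the Stxbp5 window GC boxes with an overlapping EGR motif and an NRF1 motif. The Syn1 window held the full cAMP response element and the left arm of RE1. RefSeq entries were found for 39 of the 54 genes, in 51 windows of 300 bases (250 before and 50 after the start). Their median GC content was 62.3%, against 52.7% over all 32851 windows of the table. The GC box stood in 62.7% of the 51 windows and 35.7% of all windows, the left arm of RE1 in 5.9% (Ppfia3, Syn1 and Unc13a) and 0.4%, the NRF1 motif in 3.9% and 1.0%, the EGR motif in 7.8% and 2.9%, the full cAMP response element in 2.0% and 1.8%, its core (TGACG, which the full element contains) in 19.6% and 20.8%, and the TATA box (TATAAA) in 5.9% and 13.6%. A match is a description of the letters and not evidence of binding.

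The 54 genes spanned a wide range of levels. Levels are given as CPM per kb of annotated exons (GENCODE M21), averaged over the 19 libraries, because the gene lengths implied by the deposited FPKM values departed from the annotated ones, from 0.113 times for Sv2c to 6.89 times for Rab3a. Within a gene the FPKM values and the counts were proportional. The highest levels belonged to the core of the release machinery: Snap25, the plasma membrane SNARE (319.6 CPM per kb, 245 to 411 across libraries), Cplx2 (308 CPM per kb), a complexin that holds SNARE complexes ready for fusion, Vamp2, the vesicle SNARE (288 CPM per kb), and Cplx1 (232 CPM per kb). Syp, the vesicle protein synaptophysin, stood at 225 CPM per kb, Syn1 at 210.1, Slc17a7 at 207 and Dnm1, the neuronal dynamin, at 206 CPM per kb. The lowest levels were those of Slc17a6 (3.35 CPM per kb), Rab27b (3.86), Cplx3 (4.32) and Sv2c (6.49 CPM per kb), and Slc17a7 was thus far above Slc17a6.

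Levels differed widely between paralogs of a role. Among calcium sensors, Syt11, a synaptotagmin that does not bind calcium, had 179.6 CPM per kb and Syt1, the fast calcium sensor, 90.5 CPM per kb, whereas Doc2a, a high-affinity sensor linked to asynchronous and spontaneous release, had 12.3 and Syt2, the fast sensor of the hindbrain, 7.56 CPM per kb. Per kb of the longest annotated transcript, Syt11 and Syt1 lay closer together, at 186 and 156 CPM. The SV2 glycoproteins ran from 101 CPM per kb for Sv2a, which binds the drug levetiracetam, and 96.3 for Sv2b to 6.49 CPM per kb for Sv2c. Synapsins were ordered Syn1 (210.1), Syn2 (55.0) and Syn3 (8.74 CPM per kb). Rab3a, the main Rab protein of synaptic vesicles, had 168 CPM per kb, and its effector Rph3a 79.2, while Rab26, which links vesicles to autophagy, had 9.88 CPM per kb. At the active zone the scaffold Bsn led (97.6 CPM per kb) and Unc13c, a Munc13 priming factor known best from cerebellum, was lowest (12.8), with Ppfia2, another liprin-alpha, at 16.9 CPM per kb. Among endocytosis genes Dnm1 was followed by Synj1, the phosphatase that uncoats vesicles, at 71.2 CPM per kb. The plot of levels by group shows that most groups lay close together: for Syt11 the range over all 19 libraries was 167 to 186 CPM per kb, and for Sv2c it was 1.85 to 11.2.

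**Figure D1:**
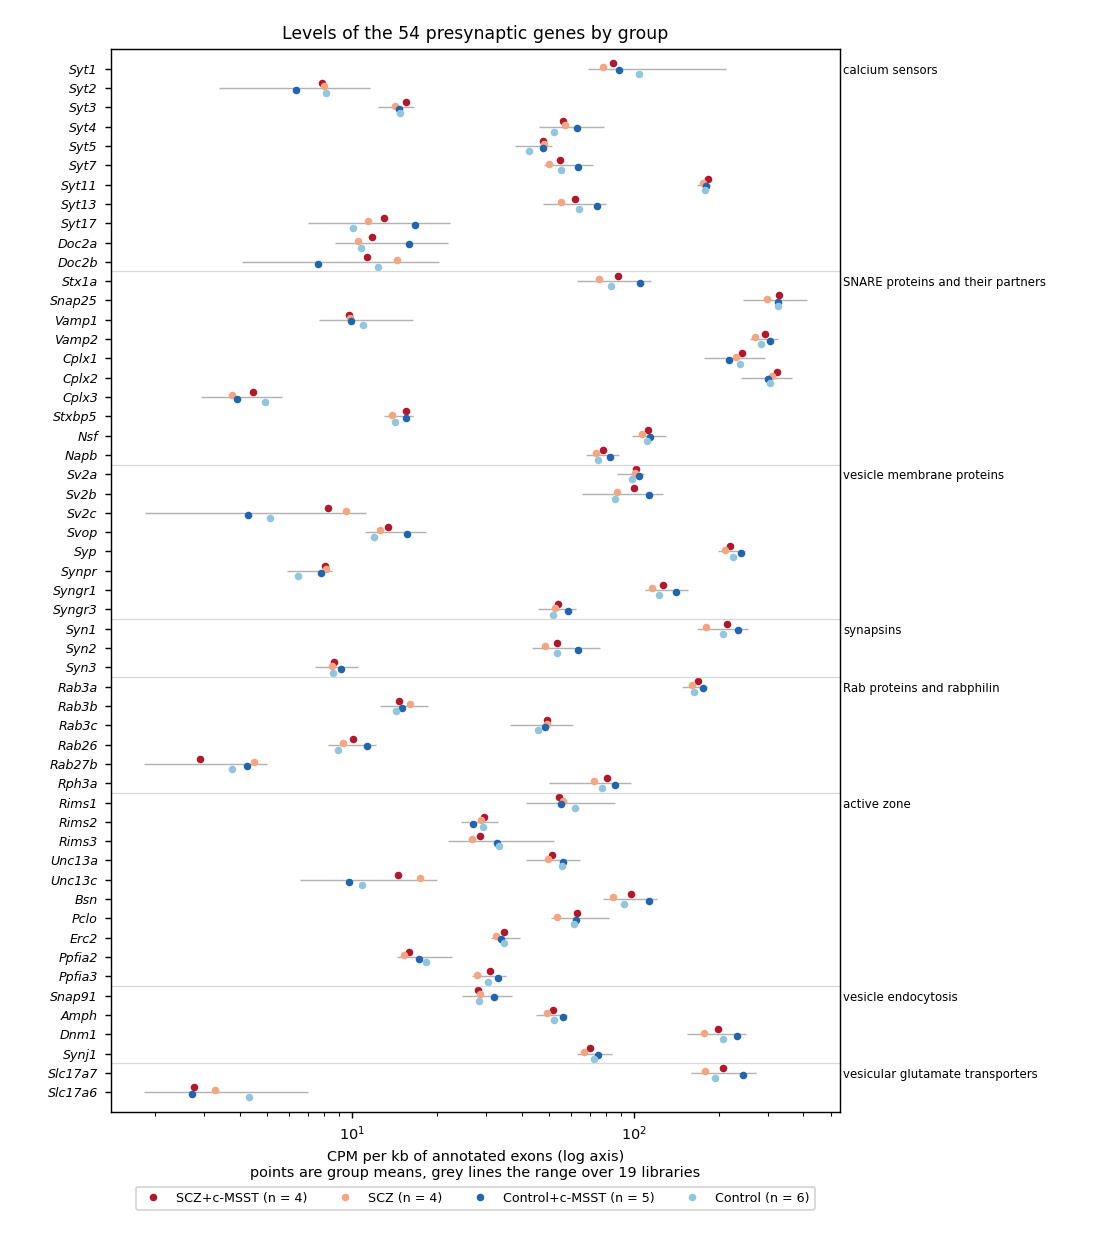
Levels of the 54 presynaptic genes, ordered by role, as CPM per kb of annotated exons on a log axis. Points are group means (SCZ+c-MSST n = 4, SCZ n = 4, Control+c-MSST n = 5, Control n = 6) and grey lines the range over the 19 libraries. Snap25 is highest at 319.6 CPM per kb and Slc17a6 lowest at 3.35, and Sv2c runs from 1.85 to 11.2 over the libraries.

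Of the 5 comparisons, Control+c-MSST against Control had the most genes of this machinery past either threshold. Svop, an SV2-related transporter-like protein of the vesicle membrane, and Rab26 rose with c-MSST in mice that had received saline, and a further 23 genes were higher at an unadjusted p under 0.05 without passing the adjustment in edgeR's test. Svop stood at 62.1, 68.8, 71.1, 83.7 and 71.9 CPM in the 5 Control+c-MSST libraries, against 50.6 to 58.1 CPM in the 6 Control libraries (median 54.5 CPM). Rab26 stood at 29.7, 34.2, 31.3, 34.8 and 30.9 CPM in the 5 Control+c-MSST libraries, against 23.6 to 27.4 CPM in the 6 Control libraries (median 25.4 CPM). In both genes every Control+c-MSST library lay above every Control library. The log2 fold change was 0.39 ± 0.07 (SE, BH-adjusted p = 0.0211) for Svop and 0.34 ± 0.06 (SE, BH-adjusted p = 0.0214) for Rab26 in edgeR's quasi-likelihood test with Benjamini-Hochberg (BH) adjustment over the 16417 genes, with means of 71.5 ± 7.82 CPM in Control+c-MSST libraries and 54.5 ± 3.36 CPM in Control libraries for Svop, and of 32.2 ± 2.19 CPM in Control+c-MSST libraries and 25.4 ± 1.59 CPM in Control libraries for Rab26 (SD, n = 5 and 6). Of all genes tested, 0.329% were called at an adjusted p under 0.05 (0.231% higher and 0.0975% lower), and 2 of the 54 presynaptic genes were, both higher. DESeq2 called 571 of all genes, 281 of them higher, and 10 of the 54, all higher: Svop, Rab26, Syt17, Doc2a, Syt4, Sv2b, Syngr1, Synpr, Bsn and Slc17a7. On log2(FPKM + 1), limma called 259 of all genes, 252 of them higher, and 9 of the 54, which were the same genes without Syt4 and Synpr and with Stx1a, the plasma membrane syntaxin.

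Svop lies on the minus strand of chromosome 5 at 114026910 to 114091570 and Rab26 on the minus strand of chromosome 17 at 24527241 to 24534210 (mm10, GENCODE M21). Rab26 shares exon bases with Traf7 on the same strand and Svop with Usp30 on the other strand, and it is not known from these sources if strand was used in counting. In this comparison Traf7 had a log2 fold change of 0.06 (adjusted p = 0.740) and Usp30 one of -0.12 (adjusted p = 0.286). Ino80e, which overlaps Doc2a in this way, had one of 0.03 (adjusted p = 0.862). Usp30 was at an unadjusted p under 0.05 here, in SCZ+c-MSST against Control+c-MSST (log2 fold change 0.16, adjusted p = 0.368) and in the interaction described below (0.23, adjusted p = 0.593), with a sign opposite to that of Svop in each of the 3. Both calls were lost in 7 of 29 alternatives, at log2 fold changes of 0.31 to 0.39, among them when Control+c-MSST replicate 4 (adjusted p = 0.0591 for both), replicate 6 (0.0821 for Svop and 0.104 for Rab26) or replicate 7 (0.0611 for both), or Control replicate 2 (0.0581 for both), was left out, when Control replicates 2 and 3 were both left out (0.0608 for Svop and 0.0665 for Rab26), and when the 2 groups were fitted alone (0.259 and 0.268). The number of members called was 0 when any 1 of these 4 libraries was left out alone. Those fits called 3, 0, 4 and 7 of all genes, in the order given. It was 5 without Control+c-MSST replicate 1, where 127 of all genes were called, and 7 without Control replicate 7, where 314 were.

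At an unadjusted p under 0.05, 25 of the 54 presynaptic genes were higher in Control+c-MSST libraries and 2 lower, where 7.86% of all genes tested were higher and 8.7% lower. The median log2 fold change of the 54 genes was 0.10, against -0.01 over all genes tested, with 37 positive and 17 negative signs, where 47.1% and 52.9% of all genes had them. Higher genes were found in each role: 6 of 11 calcium sensors, 4 of 10 SNARE proteins and partners, 6 of 8 vesicle membrane proteins, 2 of 3 synapsins, 2 of 6 Rab proteins with rabphilin, 2 of 10 active zone proteins, 2 of 4 endocytosis proteins and 1 of 2 glutamate transporters. Without Control replicates 2 and 3, 23 of the 54 genes were higher and 2 lower, and 15.1% of all genes passed in either direction, against 16.6% in the main fit.

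Doc2a, which shares exon bases with Ino80e on the other strand, came next after Svop and Rab26. It stood at 35.8, 41.5, 43.8, 61.3 and 41.5 CPM in the 5 Control+c-MSST libraries, against 24.4 to 34.9 CPM in the 6 Control libraries (median 30.7 CPM), again with no overlap, and its log2 fold change was 0.56 ± 0.12 (SE, BH-adjusted p = 0.0521). The 2 groups did not overlap in 3 of the 54 genes, all higher (Svop, Rab26 and Doc2a), where 0.847% of all genes were higher and 0.755% lower without overlap. Sv2b stood at 838, 923, 989, 1064 and 939.8 CPM in the 5 Control+c-MSST libraries, against 548 to 846 CPM in the 6 Control libraries (median 737 CPM), with a log2 fold change of 0.40 ± 0.09 (SE, BH-adjusted p = 0.0619). Control replicate 7 was the 1 Control library within the Control+c-MSST range. Slc17a7 had 1184, 1224, 1335, 1462 and 1381 CPM in the 5 Control+c-MSST libraries, against 906 to 1235 CPM in the 6 Control libraries (median 1037 CPM), and a log2 fold change of 0.33 ± 0.08 (SE, BH-adjusted p = 0.0652). Bsn had 1714, 1683, 1864, 1923 and 1881 CPM in the 5 Control+c-MSST libraries, against 1304 to 1752 CPM in the 6 Control libraries (median 1392 CPM), and a log2 fold change of 0.30 ± 0.08 (SE, BH-adjusted p = 0.0831), and in both genes Control replicate 7 was again the 1 Control library within the Control+c-MSST range. Syt17, a relative of the synaptotagmins, had the largest positive value among the 54 genes, at 0.73 ± 0.19 (SE, BH-adjusted p = 0.0917), with 70.6, 73.9, 87.4, 116 and 89.0 CPM in the 5 Control+c-MSST libraries, against 36.3 to 86.1 CPM in the 6 Control libraries (median 47.5 CPM). Its 1 Control library within the Control+c-MSST range was replicate 3.

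The rest of the 25 genes had smaller or more variable differences, none of which passed the adjustment in edgeR's test. Among calcium sensors, log2 fold changes were 0.27 ± 0.07 for Syt4, which does not bind calcium, 0.22 ± 0.07 for Syt13, 0.19 ± 0.06 for Syt7 and 0.16 ± 0.06 for Syt5 (SE). Among SNARE proteins and partners they were 0.35 ± 0.13 for Stx1a, the plasma membrane syntaxin, 0.15 ± 0.05 for Napb, the adaptor beta-SNAP of NSF, 0.14 ± 0.04 for Stxbp5 and 0.11 ± 0.05 for Vamp2. Vesicle membrane proteins ran from 0.09 ± 0.04 for Sv2a through 0.18 ± 0.06 for Syngr3 and 0.21 ± 0.06 for Syngr1, which are synaptogyrins, to 0.26 ± 0.07 for Synpr. Synapsins had 0.24 ± 0.10 for Syn2 and 0.18 ± 0.09 for Syn1. Rab3a had 0.10 ± 0.04, Ppfia3 0.13 ± 0.06, Dnm1 0.16 ± 0.07, and Amph, the membrane-bending partner of dynamin, 0.11 ± 0.05. Snap25, the SNARE partner of Stx1a, was not among the 25 genes. Its level was 2284, 2149, 2299, 2007 and 2271 CPM in the 5 Control+c-MSST libraries, against 1775 to 2788 CPM in the 6 Control libraries (median 2108 CPM), with wide overlap.

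The 2 genes in the other direction were Cplx3, a complexin of restricted cortical expression, and Doc2b, the second Doc2 sensor. Cplx3 stood at 10.2, 12.3, 12.4, 8.65 and 14.4 CPM in the 5 Control+c-MSST libraries, against 12.9 to 16.8 CPM in the 6 Control libraries (median 14.5 CPM), with a log2 fold change of -0.33 ± 0.12 (SE, BH-adjusted p = 0.1901). Doc2b stood at 50.4, 40.1, 29.4, 25.6 and 19.7 CPM in the 5 Control+c-MSST libraries, against 17.8 to 88.9 CPM in the 6 Control libraries (median 56.5 CPM), with a log2 fold change of -0.71 ± 0.33 (SE, BH-adjusted p = 0.299). Doc2a and Doc2b thus had opposite signs. The Control libraries of Doc2b covered the whole range of the Control+c-MSST libraries, and its 2 highest Control values (88.9 and 74.1 CPM) were those of Control replicates 2 and 3. Without these 2 libraries its log2 fold change was -0.29 ± 0.33 (SE, BH-adjusted p = 0.738).

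Some lists of markers of other cells had values of a common sign in Control+c-MSST against Control, and others were mixed. Interneuron markers were negative in 5 of 8 (median -0.07) and endothelial markers in 4 of 8 (median 0.06). Microglia markers were positive in 6 of 8 (median 0.09). Of the 10 oligodendrocyte and myelin markers all had a negative fold change in Control+c-MSST libraries (median -0.57; summed 983 to 3068 CPM, against 2478 to 4356 CPM in Control libraries), as had all 8 choroid plexus markers (median -3.23; 4.65 to 11.8 CPM against 5.25 to 1779 CPM), all 7 septal markers (median -0.66; 165 to 196 CPM against 154 to 397 CPM) and all 8 astrocyte markers (median -0.15; 1539 to 1710.3 CPM against 1632 to 1993 CPM). Cortical excitatory markers had a positive sign in 3 of 5 (median 0.07; 381 to 462 CPM against 300.4 to 457 CPM). None of these markers was called or at 0 in all libraries. Thalamic markers were negative in 6 of 7 (median -0.37; 86.7 to 144 CPM against 119 to 141 CPM) and striatal markers in 11 of 12 (median -0.18; 341 to 1912 CPM against 244 to 2296 CPM). Without Control replicates 2 and 3 the signs were negative in 5 of 8 choroid plexus markers (median -0.78, with 5.25 to 22.1 CPM in Control libraries), 5 of 7 septal markers (median -0.35; 154 to 226 CPM), all 8 astrocyte markers (median -0.11; 1632 to 1758 CPM), all 10 myelin markers (median -0.59; 2826 to 4087 CPM) and all 12 striatal markers (median -0.65; 478 to 2296 CPM). Their part in the result was not tested.

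**Figure D2:**
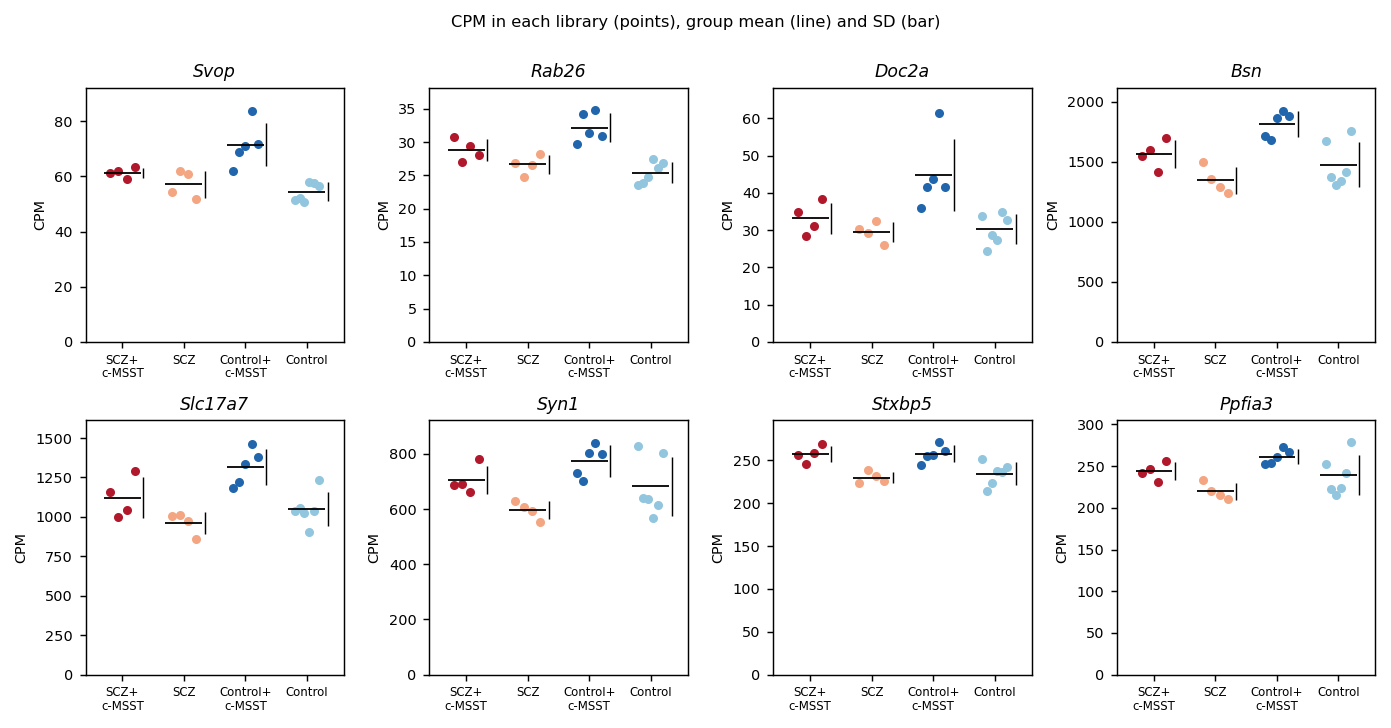
CPM of 8 presynaptic genes in each library, by group. Points are libraries, horizontal lines group means and vertical bars 1 SD (SCZ+c-MSST n = 4, SCZ n = 4, Control+c-MSST n = 5, Control n = 6). Svop, Rab26 and Doc2a in Control+c-MSST libraries all lie above the Control libraries, and Syn1 and Stxbp5 in SCZ+c-MSST libraries above the SCZ libraries.

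In mice that had received MK-801, no gene of the machinery was called with c-MSST. At an unadjusted p under 0.05, 6 of the 54 genes were higher in SCZ+c-MSST than in SCZ libraries (Stxbp5, Syn1, Slc17a7, Bsn, Pclo and Ppfia3) and 1 was lower (Rab27b), where 3.86% of all genes tested were higher and 3.7% lower. edgeR called 0 members, as did DESeq2. Of all 16417 genes edgeR called 0%, and DESeq2 called 62. The median log2 fold change of the 54 genes was 0.08, against -0.01 over all genes, with 40 positive and 14 negative signs, where 47.4% and 52.6% of all genes had them.

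Stxbp5 stood at 257, 246, 259 and 269 CPM in the 4 SCZ+c-MSST libraries, against 224, 239, 231 and 226 CPM in the 4 SCZ libraries, with a log2 fold change of 0.17 ± 0.05 (SE, BH-adjusted p = 0.416). Syn1 stood at 688, 692, 663 and 781 CPM in the 4 SCZ+c-MSST libraries, against 630.0, 608, 591 and 554 CPM in the 4 SCZ libraries, with a log2 fold change of 0.24 ± 0.10 (SE, BH-adjusted p = 0.596). Neither gene's groups overlapped. Pclo, the large scaffold piccolo, had 1367, 1425, 1377 and 1499.6 CPM in the 4 SCZ+c-MSST libraries, against 1261, 1218, 1194 and 1142 CPM in the 4 SCZ libraries, and a log2 fold change of 0.24 ± 0.10 (SE, BH-adjusted p = 0.603), also without overlap. In all, 8 genes were higher without overlap (Syt7, Syt11, Vamp2, Stxbp5, Sv2b, Syngr1, Syn1 and Pclo) and none lower, where 4.5% and 3.78% of all genes did not overlap. The size of these differences was small, from 0.05 for Syt11 to 0.24 for Syn1 on the log2 scale.

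Slc17a7 stood at 1158, 1000.2, 1040.5 and 1289.5 CPM in the 4 SCZ+c-MSST libraries, against 1006, 1009, 972 and 859 CPM in the 4 SCZ libraries, with a log2 fold change of 0.22 ± 0.09 (SE, BH-adjusted p = 0.596). Its lowest SCZ+c-MSST library lay under the 2 highest SCZ libraries. Rab27b, a Rab protein of secretory vesicles, was the 1 lower gene, at 27.3, 21.9, 20.7 and 53.4 CPM in the 4 SCZ+c-MSST libraries, against 45.0, 50.6, 47.3 and 49.8 CPM in the 4 SCZ libraries. Its log2 fold change was -0.64 ± 0.28 (SE, BH-adjusted p = 0.619), and the fourth SCZ+c-MSST library (replicate 5) held the highest value of all 8. Svop and Rab26, called in the saline groups, had log2 fold changes of 0.10 ± 0.08 (SE, BH-adjusted p = 0.797) and 0.11 ± 0.07 (SE, BH-adjusted p = 0.745) here.

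In place of 7 genes at an unadjusted p under 0.05, there were 2 without SCZ+c-MSST replicate 5, 1 without SCZ replicate 5, and 13 when these 2 groups were fitted alone. On log2(FPKM + 1) the split was 3 higher and 1 lower. The share of all genes at that threshold also moved, from 7.56% in the main fit. It was 5.49% without SCZ+c-MSST replicate 5, 5.23% without SCZ replicate 5, 13.4% with the groups alone and 6.5% on log2(FPKM + 1). All 5 cortical excitatory markers had a positive fold change in SCZ+c-MSST libraries (median 0.19; summed 359.8 to 428 CPM, against 255 to 338 CPM in SCZ libraries), and SCZ replicate 5 had the lowest sum of all 19 libraries. All 10 myelin markers had a negative one (median -0.26; 2775 to 3723 CPM against 3512 to 4104 CPM), as had 11 of 12 striatal markers (median -0.22; 1227 to 2988 CPM against 1877 to 2552 CPM). So had all 8 choroid plexus markers (median -0.73; 8.04 to 15.4 CPM against 13.4 to 21.7 CPM) and 6 of 7 septal markers (median -0.53; 151 to 186 CPM against 151 to 245 CPM). The part of these tissue differences in the presynaptic values was not tested.

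The comparisons of c-MSST in MK-801 and in saline mice share no library, so the 54 genes can be set side by side. At an unadjusted p under 0.05, 46.3% of the 54 genes were higher in saline mice and 11.1% in MK-801 mice, against 7.86% and 3.86% of all genes. These unequal shares alone raise the overlap among the 54 genes above that of all genes. In both comparisons, 5 genes were higher at an unadjusted p under 0.05: Stxbp5, Syn1, Bsn, Ppfia3 and Slc17a7. They made up 83.3% of the 6 higher genes in MK-801 mice and 20% of the 25 in saline mice, where over all genes 118 were shared, 18.6% and 9.15% of the lists. Their log2 fold changes were 0.17 ± 0.05 in MK-801 and 0.14 ± 0.04 in saline mice for Stxbp5, 0.24 ± 0.10 in MK-801 and 0.18 ± 0.09 in saline mice for Syn1, 0.22 ± 0.09 in MK-801 and 0.30 ± 0.08 in saline mice for Bsn, 0.15 ± 0.07 in MK-801 and 0.13 ± 0.06 in saline mice for Ppfia3, and 0.22 ± 0.09 in MK-801 and 0.33 ± 0.08 in saline mice for Slc17a7 (SE). None of the 5 was among the genes with an unadjusted p under 0.05 in the interaction described below. Over all 54 genes, 30 had a positive sign in both comparisons, 7 a negative sign in both and 17 opposite signs, so that 68.5% had the same sign, against 57.7% of all genes tested.

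**Figure D3:**
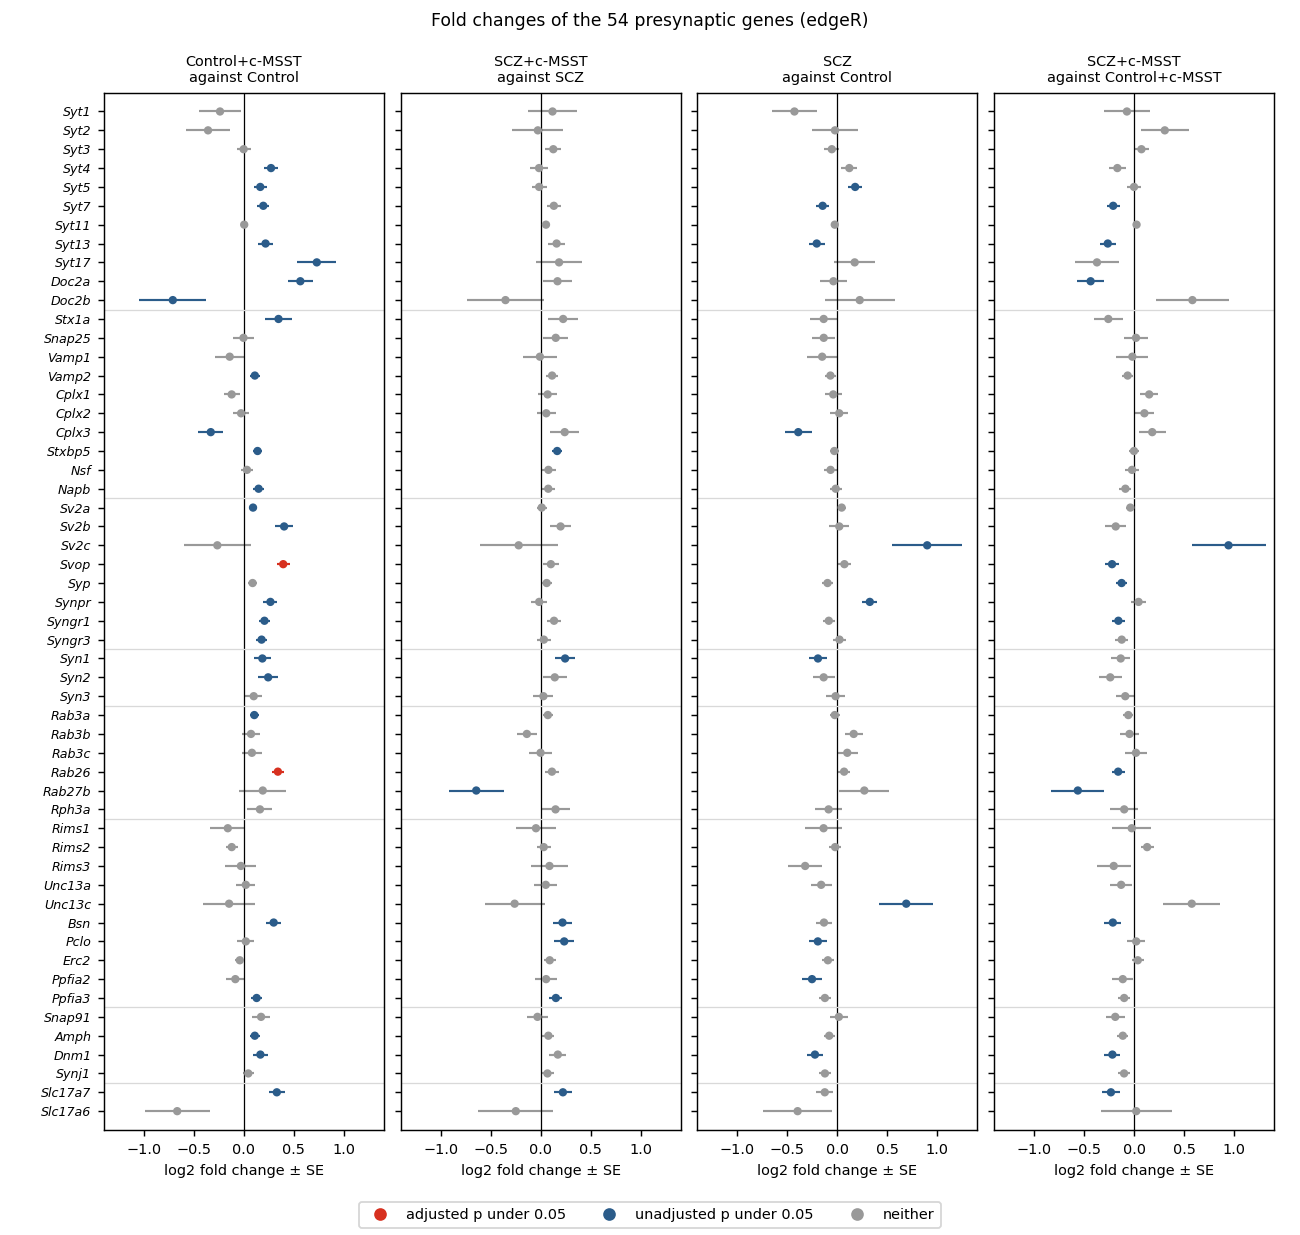
Log2 fold changes of the 54 presynaptic genes with SE from edgeR, ordered by role, in the 4 comparisons. Red points passed an adjusted p under 0.05, blue points had an unadjusted p under 0.05 and grey points neither. The 2 red points are Svop (0.39) and Rab26 (0.34) in Control+c-MSST against Control, where 25 genes are higher and 2 lower among the coloured points.

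MK-801 without c-MSST was set against saline to ask what the model itself changed. No presynaptic gene was called in SCZ against Control. By unadjusted p, 4 genes were higher (Synpr, Syt5, Sv2c and Unc13c) and 7 lower (Cplx3, Dnm1, Syt13, Ppfia2, Syt7, Pclo and Syn1), where 6.09% of all genes were higher and 7.43% lower. edgeR called 0% of all genes and 0 members, and DESeq2 called 242 of all genes and 1 member, Synpr. The median log2 fold change was -0.06, against 0.00 over all genes, with 17 positive and 37 negative signs, where 50.1% and 49.9% of all genes had them.

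Synpr, synaptoporin, a vesicle protein related to synaptophysin, stood at 75.95, 79.7, 77.6 and 72.2 CPM in the 4 SCZ libraries, against 55.4 to 70.9 CPM in the 6 Control libraries (median 57.4 CPM). Every SCZ library lay above every Control library, and the log2 fold change was 0.32 ± 0.07 (SE, BH-adjusted p = 0.148). Without Control replicate 4, the highest Control library, the gene passed the adjustment. That fit called 94 of all genes, against 0 in the main fit. Leaving out the highest Control value favours the gene, so this pass is not separate support. Syt5, a synaptotagmin, had 104, 118, 121 and 116 CPM in the 4 SCZ libraries, against 89.9 to 109 CPM in the 6 Control libraries (median 104 CPM), with overlap and a log2 fold change of 0.18 ± 0.07 (SE, BH-adjusted p = 0.260). Groups did not overlap in 3 genes in the higher direction (Synpr, Sv2c and Unc13c) and in none in the lower direction, against 1.6% and 1.25% of all genes.

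Cplx3 stood at 12.9, 12.4, 10.5 and 8.72 CPM in the 4 SCZ libraries, against 12.9 to 16.8 CPM in the 6 Control libraries (median 14.5 CPM), with a log2 fold change of -0.39 ± 0.13 (SE, BH-adjusted p = 0.224). Dnm1, which cuts vesicles from the membrane, stood at 1025, 915, 972 and 810.4 CPM in the 4 SCZ libraries, against 931 to 1234 CPM in the 6 Control libraries (median 1084 CPM), with a log2 fold change of -0.22 ± 0.08 (SE, BH-adjusted p = 0.227). Syt13, which lacks calcium binding, stood at 231, 217, 206 and 179 CPM in the 4 SCZ libraries, against 223 to 281 CPM in the 6 Control libraries (median 232 CPM), with a log2 fold change of -0.21 ± 0.08 (SE, BH-adjusted p = 0.263). In all 3 genes SCZ replicate 5 was the lowest of the 10 libraries. Other genes of the lower set had log2 fold changes from -0.25 (Ppfia2) to -0.15 (Syt7). Araf, which shares exon bases with Syn1 on the other strand, had a log2 fold change of 0.20 here (adjusted p = 0.170). It was at an unadjusted p under 0.05, with a sign opposite to that of Syn1.

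Without SCZ replicate 5, 5 genes stood at an unadjusted p under 0.05 in place of 11 (3 higher and 2 lower), and without Control replicates 2 and 3 there were 18 (4 higher and 14 lower). On log2(FPKM + 1) the split was 4 higher and 3 lower. The share of all genes at that threshold was 13.5% in the main fit and 10.4% without SCZ replicate 5. Without Control replicates 2 and 3 it was 12.8%, and on log2(FPKM + 1) 10.3%. All 5 cortical excitatory markers had a negative fold change in SCZ libraries (median -0.42; summed 255 to 338 CPM, against 300.4 to 457 CPM in Control libraries) and all 12 striatal markers a positive one (median 1.18; 1877 to 2552 CPM against 244 to 2296 CPM), with none called. Without Control replicates 2 and 3 the medians were -0.33 and 0.69, with 300.4 to 457 CPM and 478 to 2296 CPM in Control libraries and the same signs. Choroid plexus markers were negative in 8 of 8 with all libraries (median -2.18) and positive in 7 of 8 without Control replicates 2 and 3 (median 0.46). Septal markers were positive in 4 of 7 with all libraries (median 0.10) and in 6 of 7 without these 2 (median 0.31). The part of these markers in the presynaptic values was not tested.

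With c-MSST in both groups, MK-801 was again set against saline. No presynaptic gene was called in SCZ+c-MSST against Control+c-MSST by edgeR or by DESeq2. Of all genes edgeR called 0% and DESeq2 80. By unadjusted p, 11 of the 54 genes were lower, where 5.51% of all genes were, and 1 was higher (Sv2c), where 5.46% were. Lower genes were 3 of 11 calcium sensors (Syt13, Syt7 and Doc2a), 3 of 8 vesicle membrane proteins (Svop, Syngr1 and Syp), 2 of 6 Rab proteins with rabphilin (Rab26 and Rab27b), Bsn, Dnm1 and Slc17a7. The median log2 fold change was -0.09, against 0.00 over all genes, with 38 negative and 16 positive signs, where 50.1% and 49.9% of all genes had them.

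Syt13 stood at 242, 218, 218 and 253 CPM in the 4 SCZ+c-MSST libraries, against 255, 256, 294, 292 and 299.8 CPM in the 5 Control+c-MSST libraries, with a log2 fold change of -0.26 ± 0.08 (SE, BH-adjusted p = 0.305). Syt7, a slow high-affinity calcium sensor, stood at 427, 396, 398 and 418 CPM in the 4 SCZ+c-MSST libraries, against 435, 436, 484, 536 and 475 CPM in the 5 Control+c-MSST libraries, with a log2 fold change of -0.21 ± 0.06 (SE, BH-adjusted p = 0.305). Neither gene's groups overlapped. Doc2a stood at 34.8, 28.5, 31.0 and 38.2 CPM in the 4 SCZ+c-MSST libraries, against the 35.8 to 61.3 CPM of the Control+c-MSST libraries given above, with overlap in 1 library and a log2 fold change of -0.43 ± 0.14 (SE, BH-adjusted p = 0.307). Svop and Rab26 had log2 fold changes of -0.22 ± 0.07 and -0.16 ± 0.06 (SE). Groups did not overlap in Syt7, Syt13 and Amph in the lower direction and in Rims2, a RIM scaffold, in the higher direction, against 2.36% and 2.3% of all genes.

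In place of 12 genes at an unadjusted p under 0.05, there were 7 without SCZ+c-MSST replicate 3, without SCZ+c-MSST replicate 4 or without Control+c-MSST replicate 6, and 19 without Control+c-MSST replicate 1 or when these 2 groups were fitted alone. On log2(FPKM + 1) there were 27, of which 1 was higher, and the median over all genes on that scale was -0.06. The share of all genes at that threshold was 11.0% in the main fit and 15.4% on log2(FPKM + 1). It was 7.72%, 7.82% and 7.70% without SCZ+c-MSST replicate 3, SCZ+c-MSST replicate 4 or Control+c-MSST replicate 6. Without Control+c-MSST replicate 1 it was 14.1%, and with the groups alone 13.2%. All 12 striatal markers were positive in SCZ+c-MSST against Control+c-MSST (median 1.12; summed 1227 to 2988 CPM against 341 to 1912 CPM), as were all 10 myelin markers (median 0.40; 2775 to 3723 CPM against 983 to 3068 CPM), and all 5 cortical excitatory markers were negative (median -0.17; 359.8 to 428 CPM against 381 to 462 CPM). Their part was not tested.

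The comparisons of MK-801 with saline, with and without c-MSST, share no library, but they too share each gene's estimate of the spread. At an unadjusted p under 0.05, 20.4% of the 54 genes were lower with c-MSST and 13% without it, against 5.51% and 7.43% of all genes. Here too these shares alone raise the overlap among the 54 genes. Syt7, Syt13 and Dnm1 were lower at an unadjusted p under 0.05 in both comparisons, 27.3% of the 11 genes lower with c-MSST and 42.9% of the 7 lower without it, where over all genes the shares were 16.2% and 12.0%. Their log2 fold changes with and without c-MSST were -0.21 and -0.15 for Syt7, -0.26 and -0.21 for Syt13, and -0.22 and -0.22 for Dnm1. Sv2c was the 1 gene higher in both (0.94 ± 0.37 with c-MSST and 0.90 ± 0.35 without, SE). The same sign in both comparisons was found for 61.1% of the 54 genes and 57.0% of all genes.

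Whether c-MSST acted differently in MK-801 and saline mice was tested by the interaction, the log2 fold change of SCZ+c-MSST over SCZ minus that of Control+c-MSST over Control. edgeR and DESeq2 called no presynaptic gene, and of all genes edgeR called 0% and DESeq2 38. By unadjusted p, Cplx3 was positive, and Svop, Synpr, Rab26, Syt4, Rab27b and Doc2a were negative, 1 and 6 of 54 genes, where 3.9% and 3.39% of all genes were. The value was 0.57 ± 0.19 (SE, BH-adjusted p = 0.542) for Cplx3, whose c-MSST effect was 0.24 in MK-801 mice and -0.33 in saline mice. For Svop it was -0.29 ± 0.10 (SE, BH-adjusted p = 0.588), for Synpr -0.28 ± 0.11 (SE, BH-adjusted p = 0.623) and for Rab26 -0.23 ± 0.09 (SE, BH-adjusted p = 0.627). The level of Svop was 61.4 ± 1.81 CPM in SCZ+c-MSST libraries and 57.2 ± 4.89 CPM in SCZ libraries (SD, n = 4 each), and with these adjusted p-values the effects were not shown to differ between MK-801 and saline mice. The median over the 54 genes was -0.02, against 0.00 over all genes, with 26 positive and 28 negative signs, where 50.3% and 49.7% of all genes had them. Without Control replicates 2 and 3, 4 of the 54 genes were positive and 5 negative at an unadjusted p under 0.05. Of all genes, 8.52% passed in either direction in that fit, against 7.29% in the main fit.

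Some of the 54 genes varied far more between libraries of a group than others. The median within-group SD of log2 CPM was 0.142 for the 54 genes and 0.179 for all genes tested. It was smallest for Syt11 (0.0380), Sv2a (0.0627) and Stxbp5 (0.0628), and largest for Doc2b (0.596), Sv2c (0.574), Slc17a6 (0.540), Unc13c (0.445) and Rab27b (0.415). The heat map of log2 CPM by library shows these 5 genes as uneven rows, while most others stay within a narrow band.

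**Figure D4:**
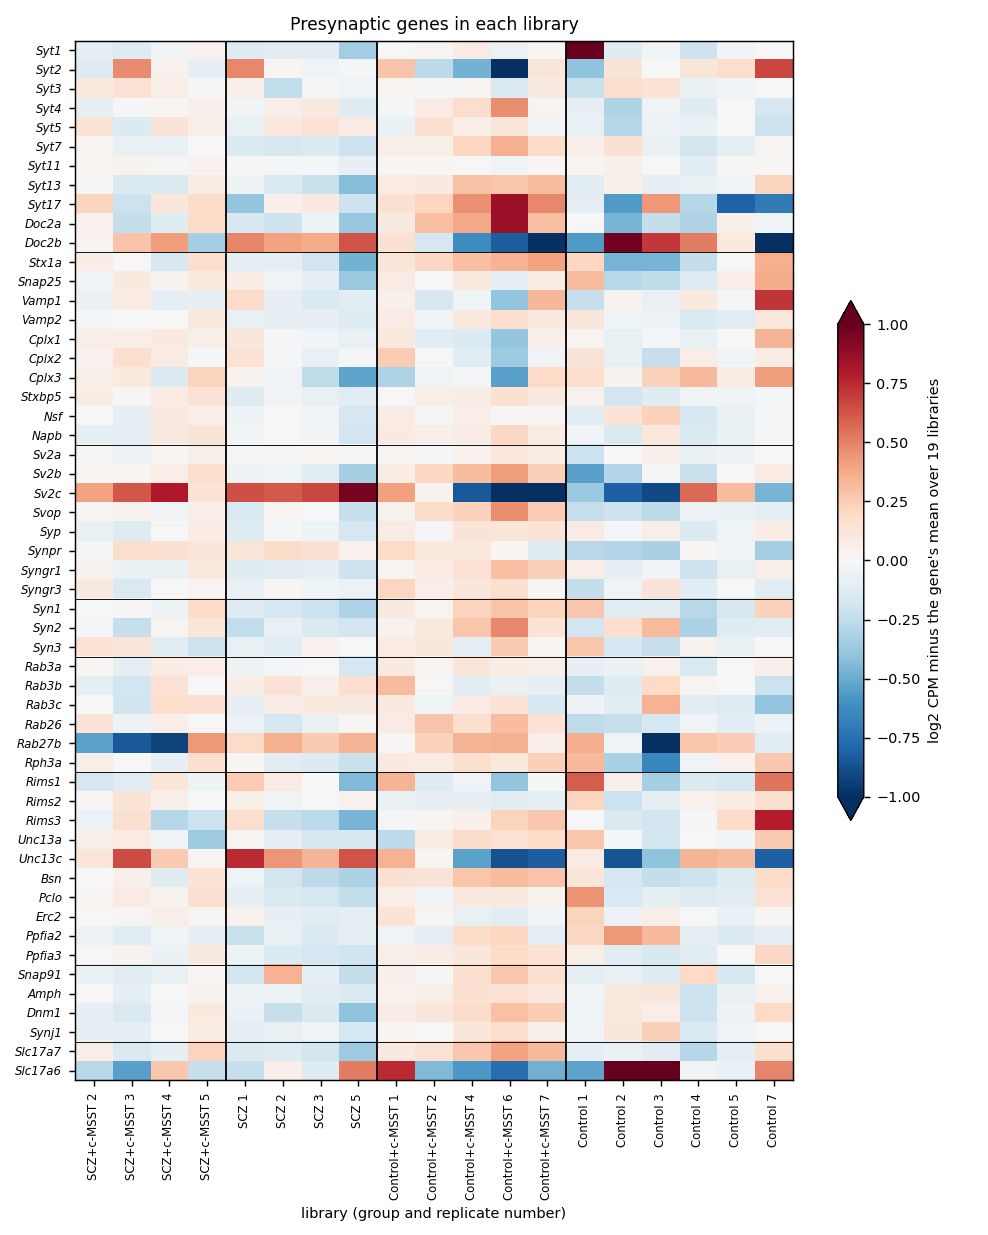
Log2 CPM of the 54 presynaptic genes in each of the 19 libraries, minus the gene's mean over the libraries (colour, cut at 1 in either direction), with libraries in columns by group and genes in rows by role. Doc2b, Sv2c, Slc17a6, Unc13c and Rab27b have the largest within-group SD, and Syt1 is dark in Control replicate 1, at 1773 CPM.

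Sv2c, the SV2 form that is abundant in basal ganglia, was low in the libraries with the fewest striatal marker counts. It stood at 74.0, 86.2, 97.4 and 61.2 CPM in the 4 SCZ+c-MSST libraries, at 87.8, 86.0, 89.0 and 109 CPM in the 4 SCZ libraries, at 74.7, 57.4, 31.1, 17.96 and 25.9 CPM in the 5 Control+c-MSST libraries, and at 30.01 to 83.2 CPM in the 6 Control libraries (median 42.1 CPM). The lowest value (17.96 CPM) belonged to Control+c-MSST replicate 6, whose striatal marker score (the mean of log2 CPM, each gene centred on its mean over the libraries) was -2.38. Control replicates 3 and 2 had 30.01 and 31.8 CPM of Sv2c with scores of -2.69 and -2.19, and the highest value (109 CPM, SCZ replicate 5) went with a score of 1.24. The log2 fold change of Sv2c was 0.94 ± 0.37 (SE, BH-adjusted p = 0.387) between the groups with c-MSST and 0.90 ± 0.35 (SE, BH-adjusted p = 0.282) between those without it, and all 12 striatal markers were positive in the same 2 comparisons. Unc13c had 177, 143, 133 and 163 CPM in the 4 SCZ libraries, against 57.8 to 133 CPM in the 6 Control libraries (median 95.5 CPM), with no overlap and a log2 fold change of 0.69 ± 0.27 (SE, BH-adjusted p = 0.282). The part of striatal tissue in both genes was not tested.

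Doc2b ran from 17.8 CPM in Control replicate 7 to 88.9 CPM in Control replicate 2, so that a single group held both ends of its range. Rab27b was low in SCZ+c-MSST replicates 2, 3 and 4 (27.3, 21.9 and 20.7 CPM) and in Control replicate 3 (19.5 CPM) and stood at 36.7 CPM or more elsewhere. Slc17a6 was high in Control replicates 3 and 2 (37.8 and 34.6 CPM), the libraries with choroid plexus markers, and in Control+c-MSST replicate 1 (28.1 CPM), and at 23.9 CPM or less in all others. High and low libraries of Doc2b and Slc17a6 thus fell within the same groups. Syt1, singled out after its values were seen, had 1773 CPM in Control replicate 1 and 574 to 775 CPM in the other 18 libraries.

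**Figure D5:**
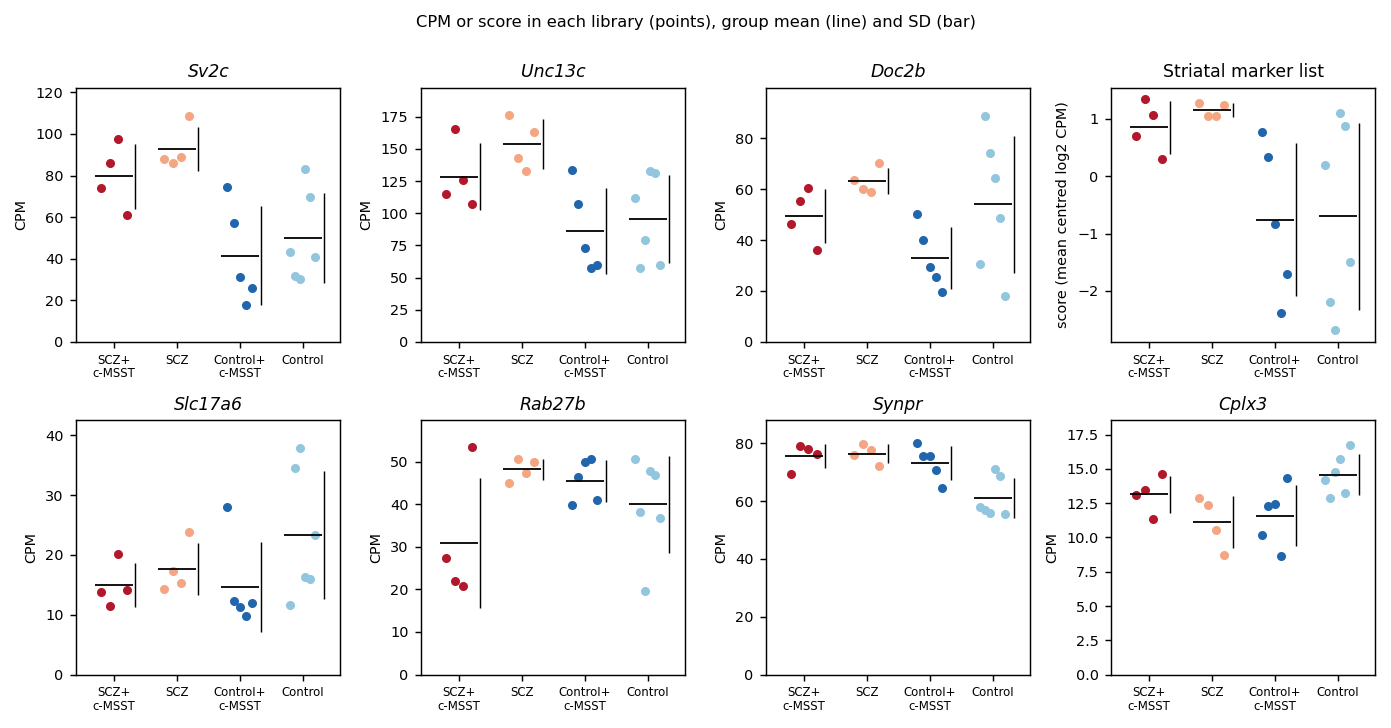
CPM of 7 presynaptic genes and the striatal marker score in each library, by group. Points are libraries, horizontal lines group means and vertical bars 1 SD (SCZ+c-MSST n = 4, SCZ n = 4, Control+c-MSST n = 5, Control n = 6). Sv2c and Unc13c are low in the libraries with low striatal scores, and Synpr in SCZ libraries lies above all Control libraries.

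A further 69 presynaptic genes outside the 54 were examined in the same fit, of which 68 were tested, and edgeR called none in any comparison. Of those named by the rule for smallest p-values, DESeq2 called Ap2a1, Slc30a3 and Ppfia1 in Control+c-MSST against Control and Scamp1, Slc32a1, Unc13b and Apba2 in SCZ against Control. The rule used edgeR p-values from the same counts, so these DESeq2 calls are not separate support. Of all genes, DESeq2 called 571 and 242 in these comparisons, in this order. In Control+c-MSST against Control, 18 of the 68 were higher and 5 lower at an unadjusted p under 0.05, where 7.86% of all genes tested were higher and 8.7% lower. Ap2a1, a subunit of the AP-2 adaptor that gathers cargo for endocytosis, stood at 303, 302, 319.6, 324 and 310.2 CPM in the 5 Control+c-MSST libraries, against 256 to 295 CPM in the 6 Control libraries (median 277 CPM), with a log2 fold change of 0.18 ± 0.04 (SE, BH-adjusted p = 0.0582). Ap2a2, Ap2m1 and Ap2s1 of the same complex had 0.15, 0.15 and 0.16 (adjusted p = 0.109, 0.0800 and 0.199), and Ap2b1 0.07 (adjusted p = 0.398), a set chosen after its values were seen. Slc30a3, the transporter that loads zinc into glutamatergic vesicles, had 0.44 ± 0.10 (SE, BH-adjusted p = 0.0652). On the lower side were Ppfia1, liprin-alpha-1, at -0.20 ± 0.05 (SE, BH-adjusted p = 0.0652), and Syt14 at -0.19 ± 0.08 (SE, BH-adjusted p = 0.210).

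Between SCZ+c-MSST and SCZ libraries, 5 of these 68 genes were higher and 0 lower at an unadjusted p under 0.05 (3.86% and 3.7% of all genes). The higher ones included Rims4, a short RIM protein, at 0.30 ± 0.08 (SE, BH-adjusted p = 0.341), and Atp6v0a1, a subunit of the proton pump that acidifies vesicles, at 0.12 ± 0.04 (SE, BH-adjusted p = 0.542). In SCZ against Control 4 were higher and 10 lower, where 6.09% and 7.43% of all genes were. Slc32a1, the vesicular GABA transporter, had 0.69 ± 0.17 (SE, BH-adjusted p = 0.150) and Scamp1, a secretory carrier membrane protein, 0.22 ± 0.05 (SE, BH-adjusted p = 0.148), while Unc13b, a Munc13 priming factor, had -0.24 ± 0.06 (SE, BH-adjusted p = 0.150) and Apba2, an adaptor that binds Munc18, -0.21 ± 0.06 (SE, BH-adjusted p = 0.165). Slc32a1 is also on the list of interneuron markers and is used by striatal neurons. In SCZ+c-MSST against Control+c-MSST, 3 were higher and 8 lower (5.46% and 5.51% of all genes), with Unc13b at -0.23 ± 0.07 (SE, BH-adjusted p = 0.286) and Rab3d at -0.38 ± 0.12 (SE, BH-adjusted p = 0.315) on the lower side and Picalm, a clathrin assembly protein, at 0.15 ± 0.05 (SE, BH-adjusted p = 0.305) and Scamp1 at 0.13 ± 0.06 (SE, BH-adjusted p = 0.437) on the higher. In the interaction, where 3.9% of all genes were positive and 3.39% negative, 2 were positive (Cadps2 at 0.34 and Ppfia1 at 0.16) and 1 negative (Tprgl at -0.22).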

How the data were processed

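Per the labels, RNA was extracted with TRIzol and libraries were made with a stranded total RNA kit and sequenced by Illumina HiSeq. The submitters' processing notes name StringTie 1.3.5, STAR 2.7.7a, fastp 0.19.5, Picard 2.18.29 and the mouse build mm10. The authors deposited 2 tables for the 19 libraries: estimated counts per gene, which are whole numbers, and FPKM values, which the authors normalized for depth and gene length. No source used here tells if strand was used in counting. In these tables, 11 gene names that had turned to dates were turned back.

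Genes passing filterByExpr (16417 of 20938) were fitted over all 19 libraries with edgeR 4.0.16 in R 4.3.3 (quasi-likelihood test, robust, TMM scaling, a coefficient per group), with p-values adjusted by Benjamini-Hochberg over all genes tested and called under 0.05. CPM values use TMM-scaled library sizes, and the SE is the size of the log2 fold change over the square root of its F. Alternatives were DESeq2 1.42.0, limma 3.58.1 on log2 of the deposited FPKM plus 1 or 0.1, other scalings and filters, a replicate block, the groups compared alone, and each library left out.

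The members and lists were chosen with earlier results of these data known. By rule, the genes named were the members called, the 3 of smallest p in each direction and comparison, those of highest and lowest FPKM in each role, the 5 of largest spread, and for other presynaptic genes the 2 of smallest p in each direction and comparison. The remaining names, the AP-2 subunits among them, were chosen after their values were seen, and CPM per kb was added after the FPKM values were seen. A cortical marker is not reported here and was left out of its list.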

Additional observations from a re-analysis of the deposited data

Results flagged for a closer look

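In 17 of 216 sets of values, each a gene of the 54 in 1 group, a single library stood apart from the others of its group by Dixon's test at the 95% level, where chance gives about 1 in 20. Each value is followed by the nearest and the farthest value of the rest of its group. In SCZ+c-MSST libraries, Vamp1 in replicate 3 stood at 108 CPM (97.6 and 95.8 CPM), Vamp2 in replicate 5 at 1174 CPM (1095 and 1088 CPM) and Cplx1 in replicate 4 at 537 CPM (529 and 527 CPM). In SCZ libraries, replicate 5 was low for Syt1 at 574.0 CPM (668 and 677 CPM) and for Napb at 476 CPM (531 and 539 CPM) and high for Sv2c at 109 CPM (89.0 and 86.0 CPM). SCZ replicate 1 was high for Syt2 at 78.1 CPM (56.6 and 54.4 CPM) and for Vamp1 at 117 CPM (96.6 and 92.4 CPM) and low for Rab3c at 544 CPM (606 and 610.5 CPM). In Control+c-MSST libraries, replicate 1 was high for Rab3b at 65.5 CPM (52.6 and 48.6 CPM) and for Slc17a6 at 28.1 CPM (12.3 and 9.86 CPM), and replicate 6 for Napb at 624.5 CPM (577 and 561 CPM). In Control libraries, replicate 7 was high for Vamp1 at 168 CPM (109.7 and 87.1 CPM), for Cplx1 at 639.5 CPM (515 and 481 CPM) and for Rims3 at 414 CPM (274 and 212 CPM). Control replicate 1 was high for Syt1 at 1773 CPM (729 and 633 CPM), and Control replicate 4 was low for Syt11 at 869 CPM (933 and 968 CPM).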

How the results depend on the processing

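Svop and Rab26 in Control+c-MSST against Control kept their sign in 29 of 29 alternatives and their call in 22. No value changed sign among the called results. For SCZ against Control, the count of all genes called (0) was 242 with DESeq2, and 1 with upper-quartile scaling, with the groups alone and on FPKM with either pseudocount. DESeq2 called 1 member. Members at an unadjusted p under 0.05 (11) were 7 on FPKM with either pseudocount and 18 without Control replicates 2 and 3. Of all genes, 13.5% were in the main fit, 10.3% and 10.2% on FPKM plus 1 and plus 0.1, and 12.8% without Control replicates 2 and 3. Leaving out a library gave 0 to 94 genes called (94 without Control replicate 4), 0 to 1 members called and 5 to 16 members at an unadjusted p under 0.05.

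For Control+c-MSST against Control, all genes called (54) were 571 with DESeq2, 0 with the groups alone, 259 and 245 on FPKM plus 1 and plus 0.1, and 16 without Control replicates 2 and 3. Members called (2) were 10 with DESeq2, 9 on FPKM with either pseudocount, and 0 with the groups alone or without Control replicates 2 and 3. Leaving out a library gave 0 to 314 genes called (0 without Control+c-MSST replicate 6 and 314 without Control replicate 7), 0 to 7 members called and 18 to 28 members at an unadjusted p under 0.05.

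For SCZ+c-MSST against SCZ, all genes called (0) were 62 with DESeq2, 31 with the groups alone and 2 on FPKM. Members at an unadjusted p under 0.05 (7) were 13 with the groups alone and 4 on FPKM. Of all genes, 7.56% were in the main fit, 13.4% with the groups alone, and 6.5% and 6.42% on FPKM plus 1 and plus 0.1. Leaving out a library gave 0 to 2 genes called and 1 to 10 members at an unadjusted p under 0.05. For SCZ+c-MSST against Control+c-MSST, all genes called (0) were 80 with DESeq2 and 1 without Control replicates 2 and 3. Members at an unadjusted p under 0.05 (12) were 19 with the groups alone or without Control replicates 2 and 3, and 27 on FPKM. Of all genes, 11.0% were in the main fit, 13.2% with the groups alone and 12.9% without Control replicates 2 and 3. On FPKM plus 1 and plus 0.1 the shares were 15.4% and 15.3%. Leaving out a library gave 0 to 1 genes called and 7 to 19 members at an unadjusted p under 0.05. For the interaction, all genes called (0) were 38 with DESeq2 and 1 without Control replicates 2 and 3. Members at an unadjusted p under 0.05 (7) were 12 and 11 on FPKM plus 1 and plus 0.1. Of all genes, 7.29% were in the main fit, and 10.9% and 10.8% on FPKM plus 1 and plus 0.1. Leaving out a library gave 0 to 1 genes called and 5 to 9 members at an unadjusted p under 0.05. The cause of these changes was not tested.

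On log2(FPKM + 1) the median log2 fold change of the 54 genes was -0.02 in SCZ against Control, 0.17 in Control+c-MSST against Control, 0.02 in SCZ+c-MSST against SCZ, -0.17 in SCZ+c-MSST against Control+c-MSST and -0.16 in the interaction. The medians over all genes on that scale were 0.02, 0.04, -0.04, -0.06 and -0.08 in the same order, and the members' values include these shifts. On log2(FPKM + 0.1) the median of all genes in the interaction was -0.13, beyond 0.1, and the members' values there include it.

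The replicate numbers did not pair the libraries: 19 same-numbered pairs of different groups had correlations of their deviations of -0.0958 to 0.139, 1 of them over 0.1, and 2 of 19 libraries correlated best with their own number. With the replicate block, Control+c-MSST against Control had 0 genes called, 0 members called (adjusted p = 0.264 for Svop and 0.268 for Rab26) and 15 members at an unadjusted p under 0.05, and SCZ+c-MSST against Control+c-MSST had 3 at an unadjusted p under 0.05. Of all genes, 10.1% and 5.94% were at that threshold with the block, against 16.6% and 11.0% in the main fit. A count of 3 corresponds to 0.0364 to 0.0598 CPM at the depth of these libraries, far under the level of every one of the 54 genes.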
